A study of Mus musculus with 4 samples.

Results

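The haematopoietic cytokine receptors described here are 9 genes, Il7r, Csf1r, Csf2ra, Csf2rb, Csf3r, Il3ra, Il6ra, Il6st and Ifngr1, picked by symbol from the 34315 features of a deposited read count table. All 9 were found by name, once each. The cells were haematopoietic stem cells (HSCs), self-renewing cells of the marrow from which every blood lineage forms, freshly sorted as SP-KSL-CD150+ cells, with the strain C57BL/6 given for the wild type. Messenger RNA was sequenced from 4 wild-type libraries, which the labels call technical replicates of one biological replicate, though the series text speaks of duplicates. An arm labelled Dnmt3a-KO, HSCs lacking a de novo DNA methyltransferase, is used here only as the authors' mean count, log2 fold change and p-value for each gene. Its per-library columns match no sample here and were not used. The sources used here give neither the age of the mice nor the Dnmt3a allele or how it was deleted.

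Blood cells read cytokines through receptors that mostly lack an enzyme of their own and signal through bound JAK kinases, which phosphorylate STAT transcription factors. Many are built from a private chain that binds the ligand and a chain shared between ligands. Il7r, Csf2ra, Csf2rb, Csf3r, Il3ra, Il6ra and Il6st belong to the class I family, Ifngr1 to the class II family, and Csf1r is a receptor tyrosine kinase that carries its own enzyme. HSCs are known for the receptor Kit, and the receptors described here are best known for guiding myeloid and lymphoid progenitors or for inflammatory signals.

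RefSeq start sites on GRCm38.p6 gave an upstream window for 7 of the 9 genes, and 3 are shown because 2 of these genes were called between the arms and Il6st had the next largest rise in value. Each is 250 bases long, ends just before the annotated start and is written 5′ to 3′ on the gene's strand, with CG dinucleotides in capitals, since CG is the site that Dnmt3a methylates. Il7r is at chr15:9529877-9530126 on the minus strand, Ifngr1 at chr10:19591699-19591948 on the plus strand and Il6st at chr13:112463820-112464069 on the plus strand.
Il7r: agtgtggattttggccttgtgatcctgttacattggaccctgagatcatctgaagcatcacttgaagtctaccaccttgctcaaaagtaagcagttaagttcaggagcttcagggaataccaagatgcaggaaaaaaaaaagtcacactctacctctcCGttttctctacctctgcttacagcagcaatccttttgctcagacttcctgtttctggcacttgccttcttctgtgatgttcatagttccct
Ifngr1: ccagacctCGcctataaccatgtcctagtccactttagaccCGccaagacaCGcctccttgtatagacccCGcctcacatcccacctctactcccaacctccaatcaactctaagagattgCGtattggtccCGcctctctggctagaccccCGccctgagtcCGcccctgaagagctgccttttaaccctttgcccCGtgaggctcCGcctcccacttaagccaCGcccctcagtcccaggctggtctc
Il6st: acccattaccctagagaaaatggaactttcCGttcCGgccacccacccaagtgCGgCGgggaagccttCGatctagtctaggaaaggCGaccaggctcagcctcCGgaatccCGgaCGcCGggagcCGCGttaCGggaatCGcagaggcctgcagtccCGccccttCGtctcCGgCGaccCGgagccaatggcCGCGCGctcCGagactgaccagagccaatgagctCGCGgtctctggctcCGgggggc
The Il7r window held 1 CG, the Ifngr1 window 11 and the Il6st window 26. Over 32851 RefSeq windows of the same length the median was 6, and 92.1% held at least 1. More CGs than in Il7r were found in 81.2% of those windows, and fewer than in Il6st in 90.4%. The other windows held 6 CGs for Csf3r, 17 for Csf2ra, 18 for Il6ra and 27 for Il3ra. CG reads the same on both strands. The bases checked just past the annotated start were held by 0 GENCODE vM21 transcripts of Il7r and 0 of Il3ra, against 2 for Ifngr1 and 2 for Il6st. Those bases of Il7r and Il3ra were thus not found in their transcripts in that second annotation. Whether the start positions match between the annotations was not tested. No methylation was measured in these libraries, so the counts describe the sequence alone.

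Library totals ran from 40709659 to 47408552 counts. Libraries 1 and 2 were close to each other, as were libraries 3 and 4, with a mean chi-square per degree of freedom of 2.03 and 1.87, where counting noise alone gives about 1. Between the pairs it ran from 125 to 127. Given the labels and this closeness, each pair is averaged and counted as 1 sample, although its libraries differed by more than counting noise. No test between the pairs was run because no label separates them. The HSC markers Kit, Mecom and Procr were present in every library, at 56135 to 65827, 6981 to 9464 and 2907 to 4982 normalised counts. In the arm labelled knockout they stood at 44980, 10599 and 21292, and no HSC marker listed was called in the authors' deposited table. Others on that list differed in both directions without a call: Hlf was 3.63-fold and Meis1 2.11-fold lower, and Hoxb5 4.76-fold higher, in the authors' deposited table. Dnmt3a itself stood at 8229, 8569, 5400 and 5208 normalised counts in libraries 1 to 4 and at 8424 in the arm labelled knockout, and since the deleted part is not stated, these whole-gene values say nothing of the label. In bulk RNA, fewer cells of a type and less RNA per cell cannot be told apart.

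In wild-type HSCs the most abundant of the 9 receptors per kb of exon was Ifngr1 and the least abundant was Il7r. Ifngr1, the ligand-binding chain of the interferon gamma receptor, had 1828 normalised reads per kb of exon in libraries 1 and 2 and 2408 in libraries 3 and 4, a level above that of 92.5% of the features tested in the deposited table. Csf3r, the receptor of granulocyte colony-stimulating factor, followed at 1589 and 989 reads per kb, and Csf2ra, the private chain for granulocyte-macrophage colony-stimulating factor (GM-CSF), at 1142 and 502 reads per kb. Il6st, the shared chain gp130 of the IL-6 family, had 595 and 811 reads per kb. The ranges of Csf3r and Csf2ra overlapped, although Csf3r was higher within each pair. Those of Csf2ra and Il6st also overlapped, and their order differed between the pairs, so it did not exceed the spread between them.

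The lower levels were better separated. Il3ra, the private chain for interleukin 3, had 430 and 386 reads per kb of exon in the wild-type pairs. Il6ra, the private chain for interleukin 6, had 213 and 282 reads per kb, and Csf2rb, the beta chain shared by GM-CSF, interleukin 3 and interleukin 5, had 211 and 153. Csf1r, which macrophages need for survival, had 69.8 and 72.5 reads per kb and lay above 40.7% of the features tested. Il7r, the receptor chain required by developing lymphocytes, had 8.19 and 33.9 reads per kb and lay above 29.6% of them. The ranges did not overlap between neighbours from Il6st downwards, although those of Il6ra and Csf2rb nearly met.

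**Figure D1:**
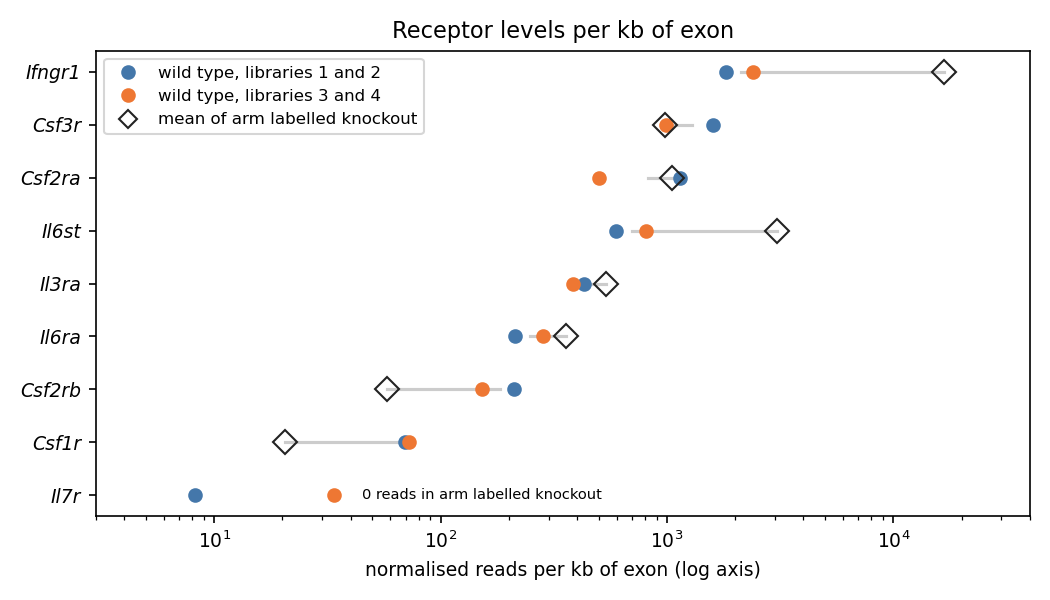
Normalised reads per kb of exon on a log axis for the 9 receptors, ordered by their wild-type mean. Filled circles are averages of libraries 1 and 2 and of libraries 3 and 4, open diamonds the authors' mean for the arm labelled knockout on the same scale, and grey lines join it to the wild-type mean; Ifngr1 and Il6st lie to the right of both wild-type points, Csf1r and Csf2rb to the left, and Il7r had 0 reads.

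The comparison between the arms asks which receptor transcripts differed in HSCs labelled as lacking Dnmt3a. Ifngr1 rose, Il7r fell and the other 7 receptors were not called, taking as called an adjusted p under 0.05 from the authors' deposited table. Over all 21778 features tested, 3.15% were called higher, 3.7% lower and 6.84% either way, so 1 call in each direction among 9 genes is a small count. At least 2-fold differences without regard to p were found for Ifngr1 and Il6st upwards and for Il7r, Csf1r and Csf2rb downwards, against 15.6% and 21.8% of all features. In the authors' deposited table the 9 receptors had a median log2 fold change of 0.35, against -0.10 over all features tested.

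Il7r pairs with the common gamma chain to bind interleukin 7 and with Crlf2 to bind thymic stromal lymphopoietin (TSLP). It lies on chromosome 15, 9435914 to 9459631 (mm9), and overlaps no other feature of the table. Its normalised counts were 23.1, 29.3, 112 and 105 in wild-type libraries 1 to 4, and the arm labelled knockout had 0 reads. The wild-type pairs did not overlap, with libraries 3 and 4 at 4.13 times the level of libraries 1 and 2, and all 4 lay above the knockout mean. Behind these levels were 50 reads in libraries 1 and 2 (exact Poisson 95% interval 37.1 to 65.9) and 229 in libraries 3 and 4 (200.3 to 261), intervals that cover counting error only. Taking 3 counts over the 4 knockout libraries as the floor, Il7r was at least 68.1-fold lower than the wild-type mean (the authors' deposited table, adjusted p = 7.19e-05). The deposited log2 value of -5.80 depends on how a count of 0 was handled and is no bound. The floor puts Il7r 26.5-fold or more below libraries 1 and 2, and 110-fold or more below libraries 3 and 4.

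Markers of several blood lineages were called lower beside Il7r, lymphoid cells among them, where 3.7% of all features tested were called lower. Of 16 lymphoid markers, 15 were tested in the authors' deposited table and 4 were called lower, namely Rag1, Dntt, Vpreb1 and Ccr9, with none called higher. The summed level of the 16 ran from 1715 to 2188 normalised counts over the wild-type libraries and was 1151 in the arm labelled knockout. Of that knockout sum Lck, not called, supplied 742, against a wild-type mean of 403. Cd79b, with the highest wild-type mean of the list at 1137, stood at 316 in the arm labelled knockout and was not called either. The T cell gene Cd3e and the B cell gene Pax5 had 0 reads in that arm but were near the floor in wild type too. Cd3e had 2, 0, 16 and 17 reads in libraries 1 to 4 and Pax5 had 9, 6, 1 and 0, and neither was called. Of 9 erythroid markers, 6 were called lower and none higher in the authors' deposited table, among them Gata1 at 31.5-fold and Car1 at 60.5-fold lower. The erythroid sum was 7346 to 11608 normalised counts in wild type and 9086 in the arm labelled knockout, of which Tfrc, not called, supplied 8603. Of 7 megakaryocyte markers, Gp5 and Pf4 were called lower and none higher in the authors' deposited table. The part of any of these cells in the Il7r difference was not tested. Ccr9, at 11.6, 23.0, 140 and 117 normalised counts in libraries 1 to 4, also differed between the wild-type pairs in the direction of Il7r, whereas Rag1, at 44.2, 28.3, 13.4 and 12.2, went the other way.

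The partner chains of Il7r were not called. Il2rg, the common gamma chain, had 4258, 4268, 4259 and 4218 normalised counts in the wild-type libraries and 15940 in the arm labelled knockout. All 4 wild-type libraries were close together and below the knockout mean, with a 3.75-fold higher value (the authors' deposited table, adjusted p = 0.184). Crlf2 had 2731, 2865, 2321 and 2244 normalised counts in the wild-type libraries and 4382 in the arm labelled knockout, a log2 fold change of 0.79 (the authors' deposited table, adjusted p = 0.76). Per kb of exon, Il2rg exceeded Il7r by 324 times in libraries 1 and 2 and by 78.1 times in libraries 3 and 4.

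Ifngr1 lies on chromosome 10, 19311764 to 19330031 (mm9), and was the receptor that rose. Its normalised counts were 3790, 3858, 5089 and 4985 in wild-type libraries 1 to 4 and 34951 in the arm labelled knockout. The knockout mean lay above every wild-type library, at 9.14 times the level of libraries 1 and 2 and 6.94 times that of libraries 3 and 4. The authors' deposited table gives a 7.88-fold rise with an adjusted p of 0.0151. Part of the gene, 1086 bases, overlaps the antisense feature HAG_003592, which had 1570 to 2217 normalised counts in the wild-type libraries and 15990 in the arm labelled knockout. Without strand, reads from the gene and this feature cannot be told apart.

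Ifngr2, the chain that completes the interferon gamma receptor, was at 774, 747, 874 and 809 normalised counts in the wild-type libraries and at 1567 in the arm labelled knockout. Its knockout mean also lay above all 4 libraries, but with a log2 fold change of 0.97 (the authors' deposited table, adjusted p = 0.66) it was not called. The ratio of Ifngr1 to Ifngr2 per kb of exon was 4.96 and 5.90 in the wild-type pairs and reached 22.0 in the arm labelled knockout.

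**Figure D2:**
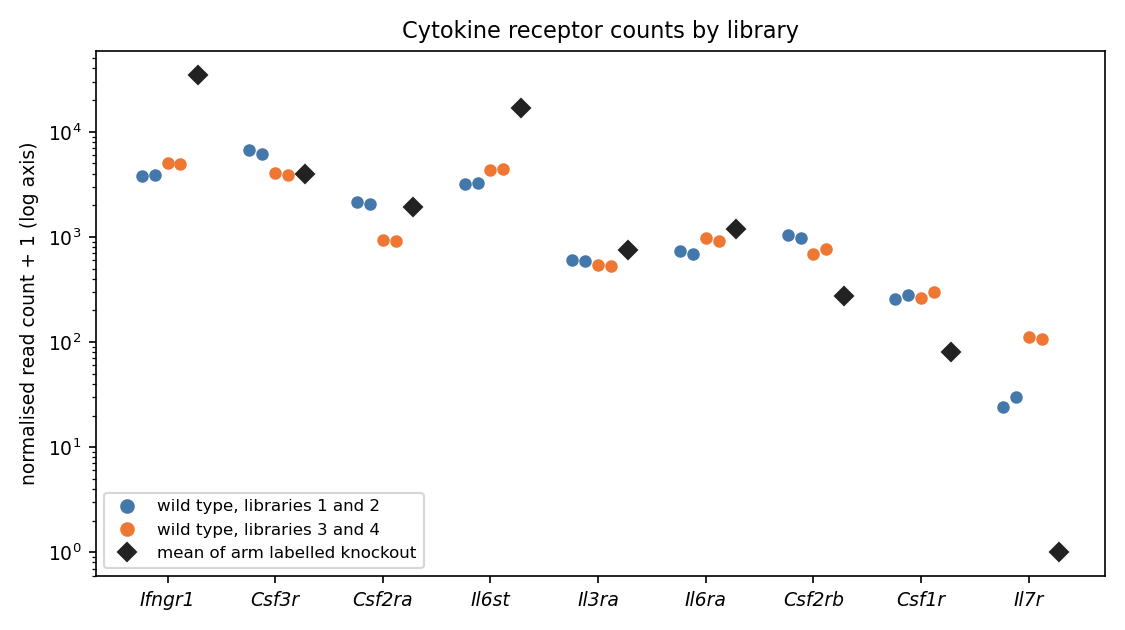
Normalised read count plus 1 on a log axis for each receptor, with circles for the 4 wild-type libraries in order and a diamond for the authors' mean of the arm labelled knockout. Ifngr1 goes from 3790 to 5089 in wild type to 34951 in the arm labelled knockout, and Il7r from 23.1 to 112 to 0 reads.

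The IL-6 receptor is built from Il6ra and a pair of Il6st chains, and Il6st also serves interleukin 11, leukaemia inhibitory factor and oncostatin M. Il6st (chromosome 13, 113254278 to 113297068, mm9) had 3217, 3255, 4368 and 4447 normalised counts in the wild-type libraries and 16656 in the arm labelled knockout. The wild-type pairs were 1.36-fold apart and both lay well below the knockout mean. The authors' deposited table gives 4.35-fold with an adjusted p of 0.118, so Il6st was not called. A stretch of 532 bases overlaps the antisense feature HAG_010965, which was at 647 to 862 normalised counts in wild type and 2243 in the arm labelled knockout.

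Il6ra (chromosome 3, 89673246 to 89717084, mm9) had 728, 692, 968 and 912 normalised counts in the wild-type libraries and 1197 in the arm labelled knockout. The knockout mean was above all 4 libraries, with a log2 fold change of 0.54 (the authors' deposited table, adjusted p = 0.877). Per kb of exon, the ratio of Il6ra to Il6st was 0.358 and 0.348 in the wild-type pairs and 0.117 in the arm labelled knockout. No test of the ratio was run, as the knockout arm was used as a single mean.

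The receptors of GM-CSF and interleukin 3 share the beta chain Csf2rb. Csf2rb (chromosome 15, 78156420 to 78181431, mm9) had 1040, 965, 680 and 774 normalised counts in the wild-type libraries and 276 in the arm labelled knockout. All 4 libraries exceeded the knockout mean, and the authors' deposited table gives a 3.12-fold lower value with an adjusted p of 0.293. Mice have a second beta chain, Csf2rb2, that serves interleukin 3 alone, and it stood at 568, 607, 577 and 561 normalised counts in wild type and 656 in the arm labelled knockout. Csf2rb2 had a log2 fold change of 0.18 (the authors' deposited table, adjusted p = 0.98). Of all stretches of 50 bases in the longest GENCODE vM21 transcript of Csf2rb, 18.4% also occur in transcripts of Csf2rb2, so the division of reads between the 2 genes is uncertain.

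The private chains of these receptors did not share the lower value of Csf2rb. Csf2ra (chromosome 19, 61300305 to 61304321, mm9) had 2140, 2054, 936 and 910 normalised counts in the wild-type libraries and 1923 in the arm labelled knockout. The wild-type pairs were 2.27-fold apart and the knockout mean fell between them. The authors' deposited table puts its log2 fold change at 0.35 (adjusted p = 0.939), and the sign depended on the reference: the recomputed value was -0.12 against libraries 1 and 2, 1.06 against libraries 3 and 4, and about 0 when columns were scaled to their totals. Il3ra (chromosome 14, 15179009 to 15188004, mm9) varied little, at 603, 586, 543 and 524 normalised counts in wild type and 744 in the arm labelled knockout, with a log2 fold change of 0.40 (the authors' deposited table, adjusted p = 0.928).

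Set against Csf2rb per kb of exon, Csf2ra was 5.41 and 3.28 times as high in the wild-type pairs and 18.1 times in the arm labelled knockout. The ratio of Il3ra to Csf2rb was 2.04 and 2.52 in the wild-type pairs and 9.28 in the arm labelled knockout, while that of Il3ra to Csf2rb2 was 3.37, 3.12 and 3.78. Csf2rb itself exceeded Csf2rb2 by 1.65 and 1.24 times in wild type and was at 0.407 of it in the arm labelled knockout.

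**Figure D3:**
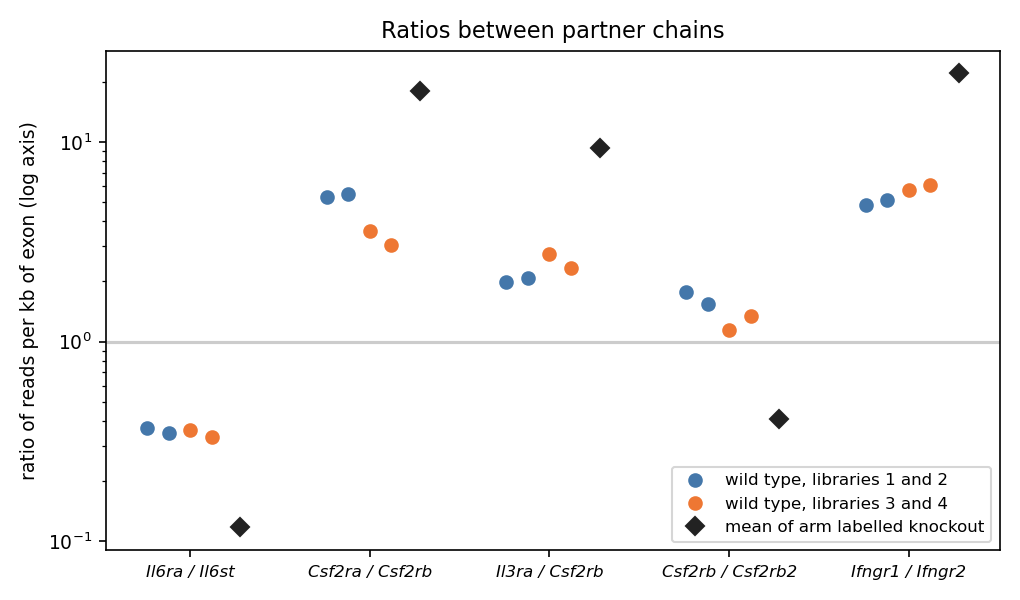
Ratios of normalised reads per kb of exon between chains that work together, and between the 2 beta chains, on a log axis, with circles for the 4 wild-type libraries and diamonds for the arm labelled knockout. The diamonds lie outside the 4 circles for every ratio plotted, as for Ifngr1 over Ifngr2 at 22.0 against 4.83 to 6.08.

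Csf3r and Csf1r are the receptors of the granulocyte and macrophage growth factors. Csf3r (chromosome 4, 125701903 to 125722219, mm9) had 6640, 6167, 4051 and 3918 normalised counts in the wild-type libraries and 3962 in the arm labelled knockout, a mean that lay within the wild-type range. For Csf3r the authors' deposited table gives -0.39 on the log2 scale (adjusted p = 0.93). Csf1r had 257, 282, 261 and 298 normalised counts in wild type, with no gap between the pairs, and 79.4 in the arm labelled knockout. All 4 libraries exceeded that mean, and the authors' deposited table gives a 3.42-fold lower value with an adjusted p of 0.243. Stretches of 50 bases shared with other genes' transcripts made up 17.7% of the longest Csf1r transcript, all with Hmgxb3, and 11.5% of that of Csf3r. Some Csf3r reads could thus be divided between genes. For Csf1r this is less sure, as that transcript has 4701 bases and the counted feature 3853 bases of exon.

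Markers of mature myeloid cells are given beside these receptors. All 12 neutrophil markers listed were present, and their summed level in normalised counts was 57590, 56792, 16962 and 16773 over libraries 1 to 4 and 38130 in the arm labelled knockout. That mean lay within the wild-type range, and none of the 12 was called in the authors' deposited table. Csf3r and Csf2ra differed between the wild-type pairs in the same direction as that sum, 1.61-fold and 2.27-fold. Within the neutrophil list Retnlg, at 66.6 and 109 in the pairs, and Prtn3, at 6080 and 6381, went the other way. Of 12 monocyte and macrophage markers, 5 were called lower and none higher in the authors' deposited table, against 3.7% of all features tested called lower. They were the complement genes C1qa, C1qb and C1qc with Cx3cr1 and Emr1. The summed level of the list ran from 3277 to 3777 normalised counts over the wild-type libraries and was 3339 in the arm labelled knockout, where Ccr2 supplied 1408 against a wild-type mean of 351 and Cd68 555 against 210. Neither of those was called, nor were Ctss, Ms4a6c and Vcam1, whose knockout means lay below all 4 libraries. The part of such cells in the values of Csf3r, Csf2ra and Csf1r was not tested.

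The differences between the wild-type pairs put the differences between the arms in scale. Il7r and Csf2ra were more than 2-fold apart between the pairs, with log2 differences, libraries 3 and 4 over libraries 1 and 2, of 2.05 and -1.18. Among 13089 features with a wild-type mean of at least 100 normalised counts, 6.11% were that far apart, 1.6% with libraries 3 and 4 higher and 4.52% with them lower, and Csf2ra was the only one of the 8 receptors above that level to be so. Csf3r stood at -0.68, Csf2rb at -0.46, Il3ra at -0.16, Csf1r at 0.05, Ifngr1 at 0.40, Il6ra at 0.41 and Il6st at 0.45. The knockout mean lay above all 4 wild-type libraries for 4 receptors and below all 4 for 3, against 34.9% and 37.9% of all features tested, and within them for Csf2ra and Csf3r.

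**Figure D4:**
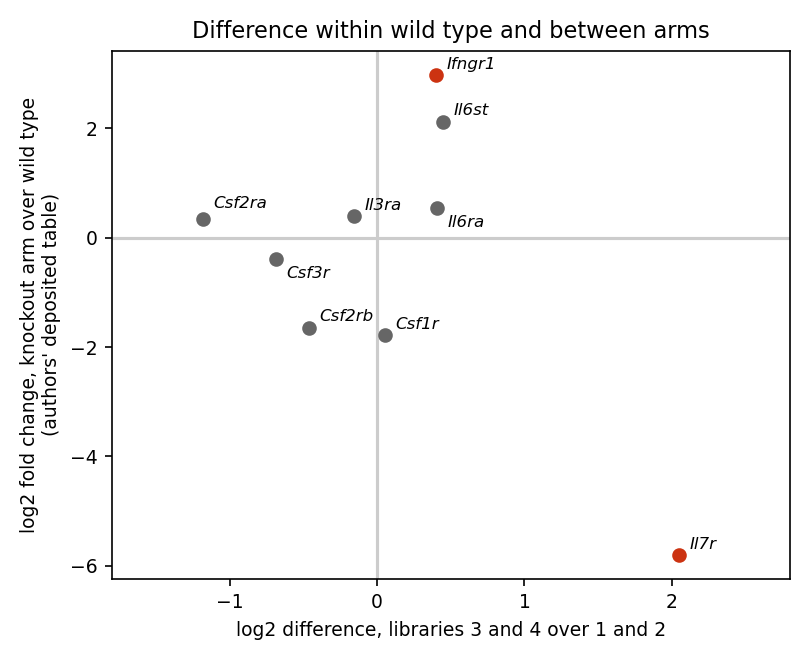
For each receptor, the log2 difference of libraries 3 and 4 over libraries 1 and 2 on the x axis and the log2 fold change of the authors' deposited table on the y axis, with the 2 called genes in red. Both axes rest on the same wild-type libraries; Il7r, at 2.05 and -5.80, differed most on both.

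The feature nearest to each receptor across the 4 wild-type libraries and the knockout mean was found among 11412 named features, by Euclidean distance between log2 profiles centred on their own mean. The nearest to Ifngr1 was Dusp6, which encodes a phosphatase of ERK kinases, at a distance of 0.0691, and the nearest to Il6st was Slc3a2, at 0.0765. For Il7r it was Eya4, at the much larger distance of 0.837, with 116, 113, 314 and 305 normalised counts in wild type and 4.28 in the arm labelled knockout. The nearest to the others were Pdcd2l for Il3ra at 0.0243, Tmem38b for Il6ra at 0.0356, Pnn for Csf2ra at 0.0543, Zfp866 for Csf3r at 0.0658, Cnr1 for Csf1r at 0.110 and Mlf1ip for Csf2rb at 0.114. Profiles of 5 values from so few libraries describe likeness in these data alone.

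Ligands of the 9 receptors were examined next. Of 16 listed, 10 reached a mean of 10 normalised counts over both arms, and of these 3 rose and none fell in the authors' deposited table. Of 17684 features at the same minimum 657 were called higher, and with no minimum 3.15% of all features tested. Ifng, the ligand of Ifngr1, had 0, 1, 4 and 1 reads in the wild-type libraries and 74.5 normalised counts in the arm labelled knockout, so it reached the minimum through the latter alone (the authors' deposited table, adjusted p = 0.000473). Il11, a ligand that signals through Il6st, had 11.6, 20.9, 5.72 and 5.63 normalised counts in wild type and 226 in the arm labelled knockout (the authors' deposited table, adjusted p = 0.000625). Lif, another such ligand, had 27.3, 20.9, 74.4 and 77.0 normalised counts and 830 in the arm labelled knockout, 16.1-fold higher (the authors' deposited table, adjusted p = 0.000837). All wild-type libraries lay below the knockout mean for the 3 genes. Il3 had no read in either arm.

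Calls in both directions were found among related receptors. Of 35 other class I and class II receptors, 29 reached the minimum, of which 1 rose and 5 fell. Of 17684 features at the same minimum 657 were called higher and 761 lower, and with no minimum 3.15% and 3.7% of all features tested. The median log2 value of the 29 receptors in the authors' deposited table was 0.29. With a minimum of 50 normalised counts, 1 of the 5 that fell is left, Il12rb2. Lepr, the leptin receptor, fell 14.6-fold, from 48.4, 46.1, 125 and 144 normalised counts to 4.94 (the authors' deposited table, adjusted p = 0.00301). Lepr also marks marrow stroma, and of 10 stromal and endothelial markers it and Cxcl12 were called lower and none higher, where 3.7% of all features tested were called lower. Of the others, Col1a1, Col1a2 and Cdh5 had knockout means above all 4 wild-type libraries, and Pdgfra, Pdgfrb and Pecam1 below all 4. The summed level of the 10 was 9163 to 13125 normalised counts in wild type and 8414 in the arm labelled knockout. Of that knockout sum Tek supplied 3392 and Pecam1 2506, neither called. The part of such cells in the Lepr difference was not tested. Il2ra, the alpha chain for interleukin 2, fell 11.5-fold, from 7.36, 13.6, 55.3 and 48.8 to 1.98 normalised counts (the authors' deposited table, adjusted p = 0.015). Its wild-type pairs did not overlap, and libraries 3 and 4 were higher, as for Il7r. Il2rb, the beta chain, fell 8.54-fold and Il31ra, which pairs with Osmr, fell 8.55-fold in the authors' deposited table. The others called, named after their values were seen, were Il12rb2, which fell 6.86-fold, and Osmr, which rose 7.23-fold (the authors' deposited table, adjusted p = 0.0213). Osmr, which pairs with Il6st to bind oncostatin M, had 127, 141, 256 and 269 normalised counts in wild type and 1444 in the arm labelled knockout.

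Among Kit, Flt3 and the receptors of the interleukin 1, 17 and 18 families, all 13 reached the minimum, 1 rising and 1 falling. Of 17684 features at that minimum, 657 were called higher and 761 lower, so these are small counts. The median log2 value of the 13 in the authors' deposited table was -0.43. Il1r2, a decoy receptor for interleukin 1, rose from 34.7, 38.7, 33.4 and 37.6 normalised counts to 428 (the authors' deposited table, adjusted p = 0.00379), although it overlaps Gm16894. Il1rl1, the interleukin 33 receptor, fell from 227, 214, 329 and 327 to 7.25 normalised counts (the authors' deposited table, adjusted p = 5.25e-05). Il1rl1 is also borne by mast cells. Of 9 mast cell and basophil markers, 7 were tested and 4 were called lower, against 3.7% of all features tested. The summed level of the 9 ran from 1204 to 1866 normalised counts in wild type and was 845 in the arm labelled knockout, with Cma1 and Tpsb2 at 0 in wild type. Of that knockout sum Hdc, which was not called, supplied 705, against a wild-type mean of 171. The part of mast cells and basophils in the Il1rl1 difference was not tested.

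None of the 19 JAK, STAT and SOCS genes was called in the authors' deposited table, which gives no unadjusted p. With 6.84% of all features tested called either way, no call among 19 genes says little of the list. The median log2 fold change of the 19 was 1.11, with 16 above 0, and 15 when columns were scaled to their totals. Of all 21778 features tested, 10006 were above 0, and 7217 when columns were scaled to their totals. Jak1, a kinase used by Il6st, Il7r and Ifngr1 whose feature overlaps Raver2 by 397 bases, had the highest level of the list per kb of exon in wild type, with 21470, 21570, 29232 and 28720 normalised counts in wild type and 31954 in the arm labelled knockout. Stat3, the main STAT downstream of Il6st, had 13313, 13389, 16239 and 15985 normalised counts and 66376 in the arm labelled knockout, 4.50-fold higher (the authors' deposited table, adjusted p = 0.106). Over the whole table, called or not, 15.6% of all features tested were at least 2-fold higher. In the arm labelled knockout Stat3 had the higher level per kb of exon, 14872 normalised reads against 6059 for Jak1.

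Of 27 adaptors, phosphatases and ubiquitin ligases that act at these receptors, none was called. With 6.84% of all features tested called either way, that also says little of the list. The median log2 value of the 27 in the authors' deposited table was 0.47. The phosphatase Ptpn6 and the adaptor Grb2 had the highest levels of the list per kb of exon in wild type, with log2 fold changes of -0.11 and -0.56 and adjusted p-values of 0.995 and 0.867 in the authors' deposited table. Of 16 transcriptional regulators of the receptors, 15 were matched by name and 13 measured. Against 657 of 17684 features called higher at the same minimum, 1 of the 13 rose. This was Cebpb, a regulator of emergency granulopoiesis, which had 294, 276, 858 and 910 normalised counts in wild type and 5782 in the arm labelled knockout, 9.86-fold higher (the authors' deposited table, adjusted p = 0.00641). The median of these regulators was -0.30.

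**Figure D5:**
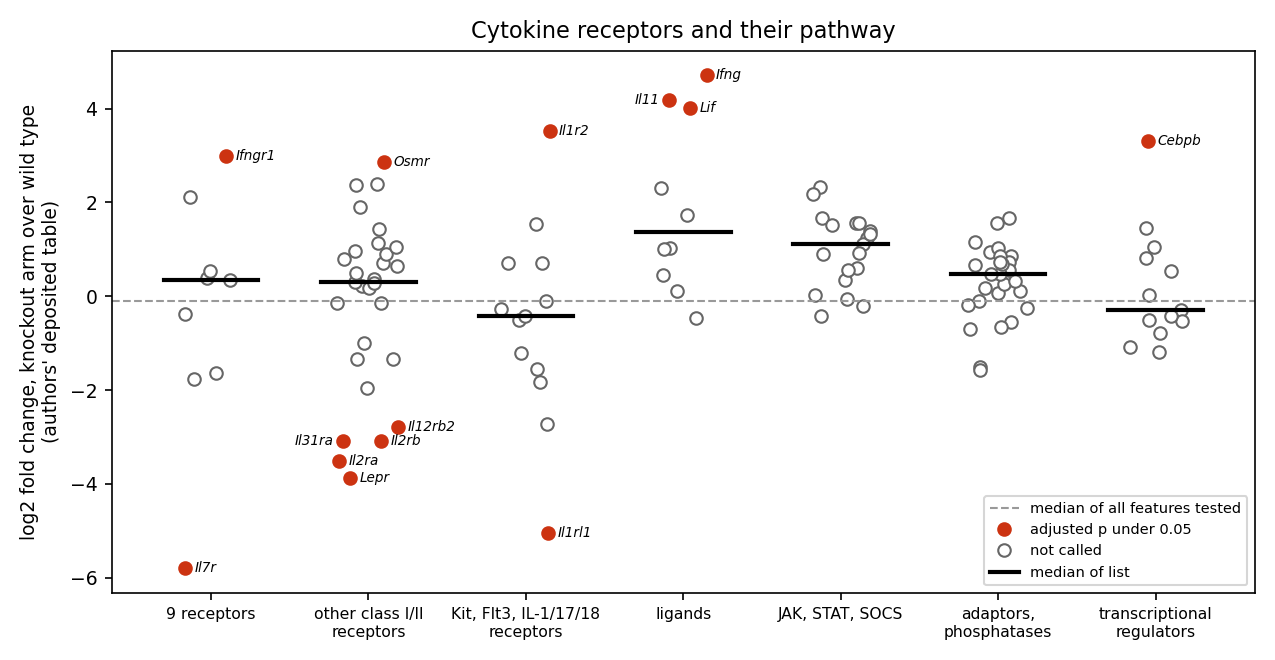
Log2 fold change of the authors' deposited table for the 9 receptors and 6 related gene lists, with 1 point per gene that reached the minimum level, red where called at an adjusted p under 0.05, a bar at each list's median and a dashed line at the median of all features tested, -0.10. Calls lie in the receptor lists, the ligands and the regulators, and none in the JAK, STAT and SOCS list or among the adaptors. Of all features tested, 6.84% were called either way.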

How the data were processed

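Libraries were prepared from polyA RNA of sorted HSCs with a TruSeq RNA kit, per the labels; no source used here says that counting used strand. The deposited table holds whole read counts per feature for the 4 wild-type libraries. Per the submitters' processing notes, mm9 and DESeq were used; the sources used here do not name the aligner, counter or annotation. The length-scaled signal deposited by the authors equals count / exon kb / 50, with no division by depth, and gave exon lengths only. The log2 fold change and the p-value are the authors', the latter read as adjusted over features. A further 8 columns of per-library values, headed with the knockout label, match no sample here and were not used.

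Normalised counts are counts over size factors (median of ratios: 0.951, 0.955, 1.048 and 1.065; Python 3.11.15, numpy 2.4.6). The mean of the arm labelled knockout was rescaled by the log2 offset of 0.399 (SD 0.00187 over 10808 features) that the authors' log2 fold change implies. Libraries were compared by chi-square over features with at least 20 reads. At these depths a count of 0 allows up to 0.0737 CPM per library. Pairing and scaling were tested on simulated data. No test between arms was run, since the knockout arm was used as 1 mean. Calls are the authors' at an adjusted p under 0.05. P-values cover spread between libraries that may be technical. A listed gene counted as measured from an average of 10 normalised counts over both arms. Named genes are all 9 members, partner chains, up to 4 called genes per list by size or else the 2 most abundant, and the nearest profile with a mean of at least 50. Sequences are RefSeq's and shared 50-mers were counted in GENCODE vM21 transcripts. Scaling by edgeR 4.0.16 TMM or totals, pseudocounts, thresholds and left-out libraries were tried. Members and lists were chosen with earlier results of these data known.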

Additional observations from a re-analysis of the deposited data

How the results depend on the processing

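The wild-type level of each receptor moved by less than its SD over the 4 libraries with TMM, library totals and size factors from features with a mean of at least 100, an SD that includes the gap between the pairs. Leaving out 1 of 4 libraries cannot move a mean past that SD and says nothing of stability. At an adjusted p under 0.01 no receptor was called higher (0, against 1), because Ifngr1 was at 0.0151, and at 0.1 the calls were the same in number. With at least a 2-fold change and no p, 2 receptors were higher and 3 lower. Without division by exon length, 6 of the 9 receptors changed rank. With a minimum of 50 normalised counts, the other class I and II receptors called lower numbered 1 in place of 5, as low genes were left out. Scaling columns to their totals shifted the median log2 fold change by -0.34 over 11953 features, which moved the median of the 9 receptors to 0.01 and that of all features to -0.44, and took the other class I and II receptors from 18 to 14 of 29 above 0. It also gave Ifngr1 a log2 fold change of 2.65 and Il6st 1.79. Ifngr1 stayed positive under all alternatives tried, while Il7r, with 0 reads in one arm, could not change sign. The pseudocount of 5 set Il7r to -3.85, as its wild-type count is low. The log2 difference of Csf1r between the pairs became -0.01 with library totals. No paired analysis was run because the only samples are one group of technical replicates and the other arm was used as a single mean. The number of libraries and the use of the knockout arm without its spread limit every statement on the arms.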
